A study of Mus musculus with 2 samples.

Results

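The vasoactive receptors examined here are the endothelin receptors *Ednra* and *Ednrb*, the angiotensin receptors *Agtr1a* and *Agtr1b*, the α1D-adrenergic receptor *Adra1d*, the vasopressin receptor *Avpr1a*, the calcitonin receptor-like receptor *Calcrl* with its partner *Ramp1*, and the prostaglandin E2 receptor *Ptger4* (EP4). These 9 genes were taken by symbol from the 31053 genes of the count matrices. The set was chosen with earlier results of these data known, and no cutoff on level was applied to the genes. They were measured by single-cell RNA sequencing (scRNA-seq; 10x Genomics 3′ v3) in cultures of primary vascular smooth muscle cells (VSMCs) from aortae of wild type mice, which the study kept on a pure C57BL6/N background and of which it used both males and females. The cells had grown for 5 days in full medium, and aortae of several mice were pooled for a preparation. There were 2 libraries, labelled biological replicates 1 and 2, and a single condition. No freshly isolated tissue was analysed here, so that a low level after 5 days does not tell whether a receptor was lost in culture or was low before.

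Endothelin, angiotensin, noradrenaline and vasopressin constrict arteries through receptors that couple mainly to Gq proteins, phospholipase C and calcium release. Calcitonin gene-related peptide (CGRP), adrenomedullin and prostaglandin E2 at EP4 act mainly through Gs proteins and cAMP. *Calcrl* reaches the cell surface only together with a receptor activity-modifying protein: with RAMP1 it forms the CGRP receptor, and with RAMP2 or RAMP3 it forms adrenomedullin receptors. Endothelin ETB receptors are known from endothelial cells (ECs), where they release vasodilators and clear endothelin, whereas ETA receptors are the main constrictor type of smooth muscle.

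A barcode was taken as a cell where it held 300 or more genes and 3000 or more unique molecular identifiers (UMIs, each standing for 1 captured transcript), with under 20% mitochondrial UMIs. This left 4866 cells with a median of 22234.5 UMIs in replicate 1 and 6824 cells with a median of 16310 in replicate 2. Contractile VSMCs are marked by smooth muscle myosin heavy chain, *Myh11*, and 4 classes that do not overlap were formed. Myh11-high cells had at least 5 *Myh11* UMIs (313 cells in replicate 1 and 574 in replicate 2), Myh11-low cells had at most 1 (2771 and 4152), cycling cells had at least 6 UMIs of *Mki67*, *Top2a* and *Cenpf* together (1450 and 1651), and ECs had at least 2 UMIs in each of at least 2 of *Pecam1*, *Cdh5*, *Cldn5* and *Gja4* (102 and 141). The remaining 230 and 306 cells had 2 to 4 *Myh11* UMIs and were in none of the 4 classes. A gate on UMIs favours deep cells: the Myh11-high cells had median depths of 23754 and 18463 UMIs, the Myh11-low cells 19734 and 14544.5, the cycling cells 28598 and 21108, and the ECs 14629 and 10250. Levels are therefore given as CPM, the UMIs of the gene scaled to 1000000 UMIs of a class in a library. The EC label was checked with 11 endothelial markers, each of which was at 5 CPM or more in the ECs of both libraries. Their sum was 4232 and 4571 CPM there against 9.42 to 16.7 CPM in the other 3 classes. The list and the sum hold the gate genes *Pecam1*, *Cdh5*, *Cldn5* and *Gja4*, whose level in ECs follows from the gate. Outside the gate *Egfl7* was highest, at 1073 and 1067 CPM against 1.97 to 7.55 CPM. *Robo4* was lowest, at 11.7 and 12.6 CPM against 0.127 CPM or less. The libraries shared 9 barcodes.

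Free RNA in droplets gives UMIs to cells that do not express a gene. From *Tie1*, *Emcn* and *Robo4*, which are endothelial genes, it was estimated at 9.96% of the UMIs of the smooth muscle classes in replicate 1 and 5.47% in replicate 2. In the ECs it was estimated from 5 mesenchymal genes at 36.3% and 23.8%, a value to which doublets of an EC and a VSMC would add as well. The level that free RNA alone would give is set beside low values.

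The sequences before the transcription start are shown for the 4 members that differed most between the classes, so that the regulatory regions can be read beside the levels. They are RefSeq sequences on GRCm38.p6, written 5′ to 3′ on the strand of the gene. Those of *Ramp1*, *Ednrb* and *Ptger4* are the 250 bases directly before the RefSeq start. That of *Calcrl* is 105 bases that end 145 bases before the RefSeq start, since an annotated exon covers the rest. The *Ednrb* window lies inside the GENCODE gene (chr14:103814625-103844402, minus strand), which begins further upstream. Capitals mark ACAAT, a core motif of SOX factors.
*Ramp1*, chr1:91179572-91179821, plus strand: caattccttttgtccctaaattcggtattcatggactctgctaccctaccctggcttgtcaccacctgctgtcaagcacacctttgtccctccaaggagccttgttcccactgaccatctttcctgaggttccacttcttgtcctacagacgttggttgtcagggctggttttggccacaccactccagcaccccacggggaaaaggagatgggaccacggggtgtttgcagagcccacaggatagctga
*Ednrb*, chr14:103843702-103843951, minus strand: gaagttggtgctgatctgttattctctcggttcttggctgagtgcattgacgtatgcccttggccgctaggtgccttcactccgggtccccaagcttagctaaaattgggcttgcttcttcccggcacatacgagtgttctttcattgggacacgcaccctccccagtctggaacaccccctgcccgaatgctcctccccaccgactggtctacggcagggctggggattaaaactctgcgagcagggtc
*Calcrl*, chr2:84425412-84425516, minus strand: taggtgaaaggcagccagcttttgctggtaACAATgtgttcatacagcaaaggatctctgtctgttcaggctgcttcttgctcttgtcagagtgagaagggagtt
*Ptger4*, chr15:5244188-5244437, minus strand: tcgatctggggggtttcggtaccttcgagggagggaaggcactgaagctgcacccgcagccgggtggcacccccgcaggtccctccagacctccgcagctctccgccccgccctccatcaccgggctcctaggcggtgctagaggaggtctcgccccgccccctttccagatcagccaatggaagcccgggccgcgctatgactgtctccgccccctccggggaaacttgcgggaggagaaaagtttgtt
Then 3 motifs were looked for on both strands of the 250 bases before the start in the 7 members with a RefSeq entry (*Agtr1a* and *Adra1d* had none): the CArG box that binds serum response factor, the ETS core CCGGAA, and ACAAT. No CArG box was found in any of the 7, and 1.47% of 32851 promoters hold one. *Avpr1a* had CCGGAA once (12% of all promoters hold it). *Calcrl* had ACAAT 2 times, of which 1 lies in the printed stretch, and *Agtr1b* had it once (27.7% of all promoters hold it). The *Ptger4* sequence was the richest in G and C, with 66.8% and 19 CpG dinucleotides against medians of 52.4% and 6 over all promoters, and the *Calcrl* window had 48.4% and 3. A match describes these letters only.

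Across the 4 classes, *Ramp1* stood out in the Myh11-high cells, *Ednrb*, *Calcrl* and *Ptger4* in the ECs, and *Adra1d* was hardly detected at all. Of the 36 pairs of a member and a class, 9 were below 1 CPM in both libraries, the level taken here as absent. These were *Adra1d* in all 4 classes, *Ednrb* in the 3 smooth muscle classes, and *Agtr1b* in Myh11-low and cycling cells. The receptors absent from the smooth muscle cells of both cultures by this measure were thus *Adra1d* and *Ednrb*. *Agtr1b* was close to the limit in Myh11-high cells, with 1.02 and 0.514 CPM. With the free RNA estimate above subtracted, it was under 1 CPM there in both libraries. The count of 9 pairs depends on the free RNA: it was 15 after subtraction of the estimate above.

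**Figure D1:**
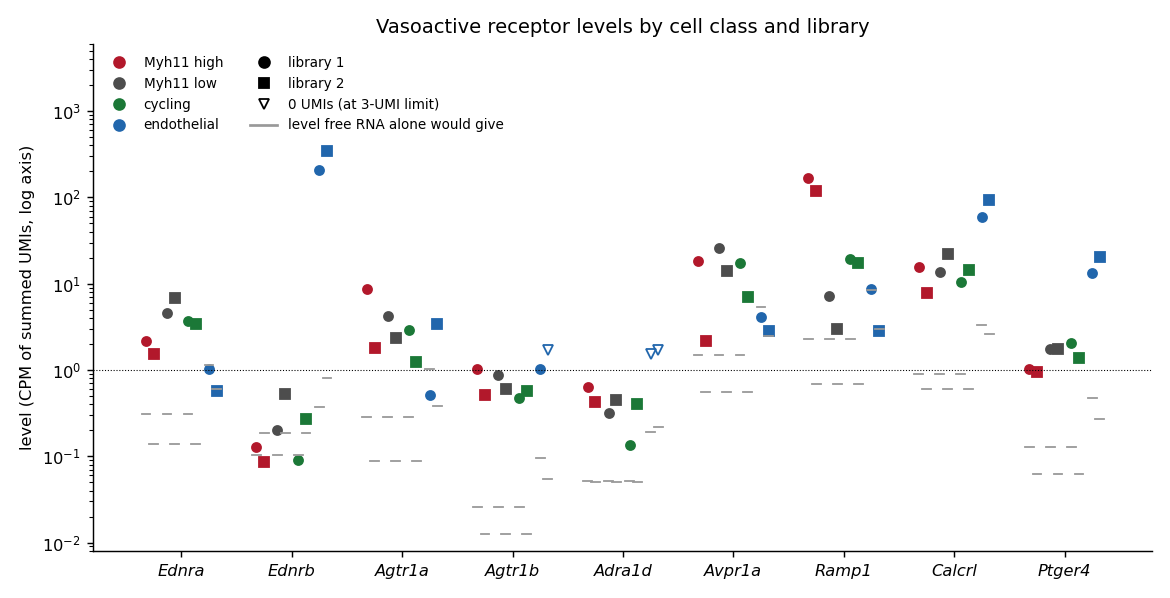
Level of each receptor gene in CPM of summed UMIs (log axis) by cell class (colour) and library (circle, replicate 1; square, replicate 2); grey dashes give the level that free RNA alone would produce, open triangles classes with 0 UMIs drawn at the 3-UMI limit, and the dotted line 1 CPM. *Ramp1* is highest in Myh11-high cells (168 and 118 CPM), *Ednrb* in ECs (208 and 343 CPM), and all points of *Adra1d* with a UMI lie below 1 CPM.

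Differences were tested with edgeR's quasi-likelihood test on the 8 sums of UMIs (4 classes in 2 libraries), with Benjamini-Hochberg adjustment over the 14095 genes that passed the filter on low counts. All 9 members passed that filter. Between Myh11-high and Myh11-low cells, 2.43% of the genes tested were higher and 0.873% lower in the Myh11-high cells. Of the 9 members, 1 was higher (*Ramp1*) and 8 did not pass. Between cycling and Myh11-low cells, 4.89% of all genes were higher and 0.227% lower, and no member passed. In that contrast 1 member, *Ramp1*, had an unadjusted p under 0.05 in edgeR, and it was the 1 member that passed in DESeq2. Between the ECs and the mean of the 3 smooth muscle classes, 11.6% of all genes were higher and 12% lower in ECs, and of the members 3 were higher (*Ednrb*, *Calcrl*, *Ptger4*), 2 were lower (*Ednra*, *Ramp1*) and 4 did not pass. With the library as a block, which pairs the classes of a culture, the shares over all genes were 11.6% and 11.2% in the first contrast, 13.7% and 8.19% in the second, and 16.4% and 20.3% in the third. Under the block *Ednra* also passed as lower in Myh11-high cells, and *Ramp1* also passed as higher in cycling cells.

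**Figure D2:**
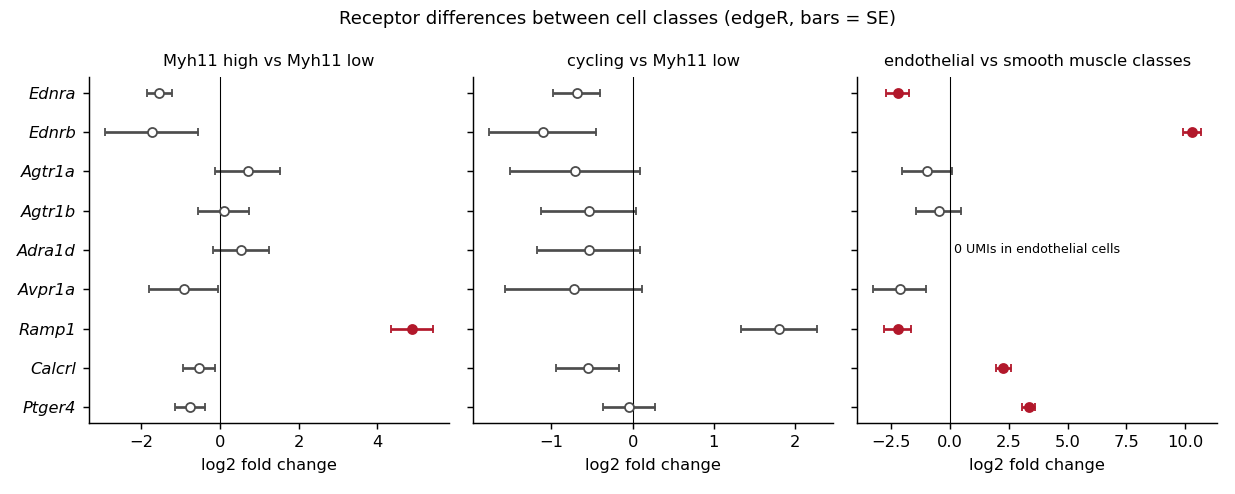
Log2 fold change of the 9 receptor genes in the 3 contrasts, with bars of 1 standard error from edgeR. *Ramp1* lies at 4.87 between Myh11-high and Myh11-low cells, and *Ednrb* at 10.29 between ECs and the smooth muscle classes; the value of *Adra1d* in the ECs rests on 0 UMIs there.

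The endothelin receptors divided between the cell types. *Ednra*, the ETA receptor, was at 4.54 CPM in replicate 1 and 6.75 CPM in replicate 2 in Myh11-low cells, at 3.69 and 3.45 CPM in cycling cells, and at 2.16 and 1.54 CPM in Myh11-high cells. Both Myh11-low values were above those of the other classes, and both Myh11-high values were below those of the cycling cells. The log2 fold change of Myh11-high against Myh11-low cells was -1.54 ± 0.32 (SE), with an edgeR adjusted p of 0.0574. With the library as a block it was -1.56, with an adjusted p of 0.00926. The share of cells with a UMI pointed the same way: it was 8.44% and 9.90% in Myh11-low cells against 4.79% and 2.61% in Myh11-high cells, although the Myh11-high cells were deeper. After thinning every cell to 3000 UMIs it was 1.41% and 2.17% against 0.644% and 0.480%. The sum of 6 fibroblast markers moved the same way, at 372 and 149 CPM in Myh11-high against 665 and 959 CPM in Myh11-low cells. Of the 6, 5 were at 5 CPM or more and none at 0 in either class. *Col15a1* of this list went the other way, at 26.8 and 13.9 CPM in Myh11-high against 17.6 and 5.16 CPM in Myh11-low cells. The part of fibroblast markers in the differences between these classes was not tested.

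In the ECs, *Ednra* had 2 UMIs in replicate 1 and 1 UMI in replicate 2, or 1.02 and 0.571 CPM. Free RNA alone would give 1.13 and 0.599 CPM, so these values are at background. The log2 fold change of ECs against the smooth muscle classes was -2.24 ± 0.48 (SE), with an edgeR adjusted p of 0.0176, whereas DESeq2 gave an adjusted p of 0.0513. The *Ednra* locus (GRCm38 chr8:77663031-77724464, minus strand) has exons that overlap the opposite-strand gene 4933431K23Rik.

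*Ednrb*, the ETB receptor, was an EC transcript in these cultures. Its level in the ECs was 208 CPM in replicate 1 and 343 CPM in replicate 2, and 0.0856 to 0.532 CPM in the 3 smooth muscle classes. The log2 fold change of ECs against the smooth muscle classes was 10.29 ± 0.39 (SE; edgeR adjusted p = 1.21e-05). Its size rests on few smooth muscle UMIs, with 1 in the Myh11-high cells of each library, and ranged from 9.42 to 15.3 over the alternative settings. The Myh11-high and cycling values lie near the level that free RNA would give (0.103 CPM in replicate 1 and 0.187 CPM in replicate 2). The Myh11-low cells were above it, at 0.200 and 0.532 CPM. By the free RNA estimate planned first they were below it (0.513 and 1.85 CPM). In those cells 12 and 36 UMIs were counted, and in replicate 2 63.9% of them lay in 10 cells.

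Among the ECs, *Ednrb* was unevenly spread. A UMI was found in 49.0% of them in replicate 1 (95% exact binomial interval 39.0% to 59.1%) and in 55.3% in replicate 2 (46.7% to 63.7%), and in 29.8% and 38.2% after thinning to 3000 UMIs. The 10 cells with the most *Ednrb* held 62.8% and 41.2% of its EC UMIs, and 1 cell had 63. ECs with at least 5 *Ednrb* UMIs (23 and 39 cells) were set beside those with 0 (52 and 63 cells) in a comparison added after the values were seen. The list of lymphatic markers had 4 genes. *Prox1*, a transcription factor of lymphatic endothelium, was found in 34.8% and 23.1% of the former and in 11.5% and 6.35% of the latter. *Flt4*, the receptor for lymphatic growth factors, was found in 47.8% and 38.5% against 32.7% and 15.9%. *Lyve1* was found in 8.70% and 2.56% against 5.77% and 0%, and *Pdpn* was no EC gene here, being at 46.9 and 17.7 CPM in all ECs against 119 CPM in the Myh11-low cells of each library. Some genes outside the lymphatic list were higher as well: *Cldn5* was at 608 and 765 CPM in the *Ednrb*-rich ECs against 358 and 386 CPM. *S1pr1* was at 327 and 351 against 183 and 249 CPM, and *Cdh5* at 558 and 598 against 391 and 509 CPM. Others were lower in CPM: *Edn1* was at 554 and 261 against 676 and 806 CPM, and *Gja4* at 496 and 623 against 609 and 650 CPM. *Emcn* differed between the libraries, at 240 and 274 against 221 and 875 CPM. In CPM *Prox1* was at 100 and 105 against 56.6 and 42.3 CPM. Median depths were 19819 and 12263 UMIs against 12884 and 8358 UMIs, and the part of depth in these differences was not tested. *Pecam1* was found in every cell of both groups.

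The angiotensin receptors were low and differed between the libraries. *Agtr1a*, which encodes an AT1 receptor, was at 8.64 CPM in the Myh11-high cells of replicate 1 and at 1.80 CPM in those of replicate 2. The Myh11-low cells had 4.25 and 2.36 CPM, and the cycling cells 2.88 and 1.24 CPM. The order of Myh11-high and Myh11-low cells was opposite in the libraries, and the log2 fold change was 0.71 ± 0.82 (SE; edgeR adjusted p = 0.733). In the ECs *Agtr1a* had 1 and 6 UMIs, or 0.510 and 3.43 CPM, in 1 and 3 cells. Free RNA would give 1.04 and 0.381 CPM there.

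*Agtr1b*, the second AT1 receptor of rodents, had 156 UMIs in all cells of both libraries against 733 for *Agtr1a*. Its levels in the smooth muscle classes ranged from 0.469 to 1.02 CPM, above the 0.0259 and 0.0125 CPM that free RNA would give. The ECs had 2 UMIs in replicate 1 and 0 in replicate 2 (0 of 141 cells, which allows a share of cells with a UMI of up to 2.13%). None of the 3 contrasts passed for either gene. The 2 genes are near copies, with 89.8% identity over 1145 aligned bases of their longest transcripts. Over the last 500 bases, from where 3′ libraries draw most reads, the alignment covered 81 bases at 76.5%, and reads from the shared part may have been divided between them or dropped.

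*Adra1d*, which mediates noradrenaline-evoked contraction in the mouse aorta, was near the limit of detection. It had 84 UMIs in all, each in a different cell, and 0.134 to 0.635 CPM in the smooth muscle classes. In Myh11-high cells the values were 0.635 and 0.428 CPM from 5 UMIs in each library, and in Myh11-low cells 0.317 and 0.443 CPM from 19 and 30 UMIs. These values overlap, and the log2 fold change of 0.53 ± 0.71 (SE) did not pass (edgeR adjusted p = 0.775). All 6 smooth muscle values were above the free RNA level of 0.0517 and 0.0499 CPM by the estimate used here. By the estimate planned first some were below it: 0.134 against 0.246 CPM in the cycling cells of replicate 1. In replicate 2 this held for the Myh11-low cells (0.443 against 0.494 CPM) and the cycling cells (0.404 against 0.514 CPM). In the ECs there was no UMI: 0 of 102 and 0 of 141 cells allow shares of cells with a UMI of up to 2.94% and 2.13% (counting error only, and no limit on cells that express the gene), and 3 UMIs would have been 1.53 and 1.71 CPM. At that depth a level like that of the smooth muscle classes was not detectable in the ECs, and no fold is given. The opposite-strand gene Gm14285 overlaps exons of *Adra1d* (GRCm38 chr2:131545850-131562283, minus strand).

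*Avpr1a*, the V1a receptor for vasopressin, had 3893 UMIs in all cells, the most among the constrictor receptors of the 9 genes. Outside them *Tbxa2r*, the thromboxane receptor, had 6871 and *F2r* 21235 (both named after their values were seen). The Myh11-low cells had 25.8 CPM in replicate 1 and 13.9 CPM in replicate 2, the cycling cells 17.6 and 7.08 CPM, and the Myh11-high cells 18.2 and 2.14 CPM. The cells with 2 to 4 *Myh11* UMIs had 27.2 and 6.57 CPM. Within each library the Myh11-low cells were the highest of the 3 smooth muscle classes, but replicate 1 was above replicate 2 in all 3. The ranges overlap across libraries, and the log2 fold change of Myh11-high against Myh11-low cells was -0.92 ± 0.88 (SE; edgeR adjusted p = 0.661). It was -0.50 within replicate 1 and -2.67 within replicate 2. A UMI was found in 32.3% and 16.8% of Myh11-low cells and in 27.5% and 4.18% of Myh11-high cells. In the ECs *Avpr1a* was at 4.08 and 2.86 CPM, close to the 5.38 and 2.45 CPM of free RNA, and the fold change against the smooth muscle classes did not pass in edgeR (log2 fold change -2.15 ± 1.11, SE; adjusted p = 0.211), whereas it passed in DESeq2 (adjusted p = 0.0421).

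*Ramp1*, the partner that turns the calcitonin receptor-like receptor into a CGRP receptor, had the most UMIs of the 9 genes (5300) and was the member that followed *Myh11*. It was at 168 CPM in replicate 1 and 118 CPM in replicate 2 in Myh11-high cells and at 7.29 and 2.98 CPM in Myh11-low cells. The log2 fold change was 4.87 ± 0.53 (SE), or 29.3-fold, with an edgeR adjusted p of 0.00937. A UMI was found in 63.6% and 66.6% of Myh11-high cells and in 8.44% and 3.32% of Myh11-low cells. Free RNA alone would reach 5.60% and 1.39% of the former and 4.83% and 1.11% of the latter, and give 2.30 and 0.687 CPM of *Ramp1* in each class. The fold therefore depends on the background: it was 5.35 on the log2 scale after subtraction of this estimate, and 14.62 with the estimate planned first, which in Myh11-low cells (11.4 and 6.80 CPM) exceeded the measured level. Both passed (edgeR adjusted p = 0.0119 for each). After thinning these shares were 31.3% and 27.4% against 2.24% and 1.07%, in the same order at equal depth.

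In cycling cells *Ramp1* was at 19.3 and 17.3 CPM, above both values of the Myh11-low cells. The log2 fold change of 1.80 ± 0.47 (SE) did not pass (edgeR adjusted p = 0.102), but passed with the library as a block (1.90, adjusted p = 0.00164). The cycling cells held cells of all *Myh11* levels, and a split by *Myh11* was added after the values were seen. Cycling cells with at least 5 *Myh11* UMIs (160 and 305) had 120 and 68.1 CPM of *Ramp1*. Those with 2 to 4 had 18.6 and 19.4 CPM, and those with 0 or 1 had 3.90 and 1.95 CPM. Within the cycling cells, then, *Ramp1* had the same order over *Myh11* as outside the cell cycle.

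In the ECs *Ramp1* was at 8.66 and 2.86 CPM from 17 and 5 UMIs, and free RNA alone would give 8.39 and 2.99 CPM. These UMIs lay in 4 of 102 and 2 of 141 cells (3.92% and 1.42%), with up to 9 in a cell. Free RNA alone would reach more cells than that, 14.3% and 3.62%. The 4 and 2 cells had median depths of 55994.5 and 41186 UMIs, against 14285.5 and 10223 in the ECs without *Ramp1*. The part of free RNA and of deep cells in this level was not tested. The EC values were below those of the Myh11-high and cycling cells, but close to the 7.29 and 2.98 CPM of the Myh11-low cells. The log2 fold change of ECs against the mean of the 3 smooth muscle classes was -2.22 ± 0.57 (SE; edgeR adjusted p = 0.0331). It was -6.45 once ECs with at least 2 *Myh11* or at least 5 *Pdgfra* UMIs were left out (94 and 135 cells remained). When free RNA was subtracted by the estimate planned first it was -3.22 and did not pass (edgeR adjusted p = 0.992).

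*Calcrl* itself did not follow *Myh11*. It was at 13.8 CPM in replicate 1 and 21.9 CPM in replicate 2 in Myh11-low cells, at 10.5 and 14.2 CPM in cycling cells, and at 15.6 and 7.71 CPM in Myh11-high cells. The Myh11-high and Myh11-low values overlap, with opposite orders in the libraries, and the log2 fold change was -0.54 ± 0.40 (SE; edgeR adjusted p = 0.558). The ECs had 58.6 and 92.5 CPM, above every smooth muscle value, and the log2 fold change there was 2.27 ± 0.31 (SE; edgeR adjusted p = 0.00303). In each library 46.1% of the ECs had a UMI, against 10.5% to 24.9% of the cells of the smooth muscle classes, where free RNA would give 2.75% or less.

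The partners of *Calcrl* were split between the cell types. *Ramp2*, which makes it an adrenomedullin receptor, was at 458 and 665 CPM in ECs, at 15.5 and 19 CPM in Myh11-low cells and at 5.85 and 3.85 CPM in Myh11-high cells. It was lower in Myh11-high than in Myh11-low cells (log2 fold change -1.77 ± 0.26, SE; edgeR adjusted p = 0.0241), the reverse of *Ramp1*, and higher in ECs than in the smooth muscle classes (5.70 ± 0.18, SE; edgeR adjusted p = 7.30e-06). *Ramp3* had no UMI in the Myh11-high cells of either library and 6.62 and 10.9 CPM in the ECs. Levels are counts of 3′ tags, which do not scale with transcript length. On that scale *Ramp1* was above *Ramp2* in the Myh11-high cells and below it in the Myh11-low cells of both libraries. *Calcrl* and *Ramp1* were found together in 16.0% and 5.92% of Myh11-high cells, in 1.59% and 0.434% of Myh11-low cells and in 2.94% and 1.42% of ECs. Among the Myh11-high cells of replicate 1 *Calcrl* was found in 25.1% of cells with *Ramp1* and 24.6% of those without, and in replicate 2 in 8.90% and 13.5%.

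**Figure D3:**
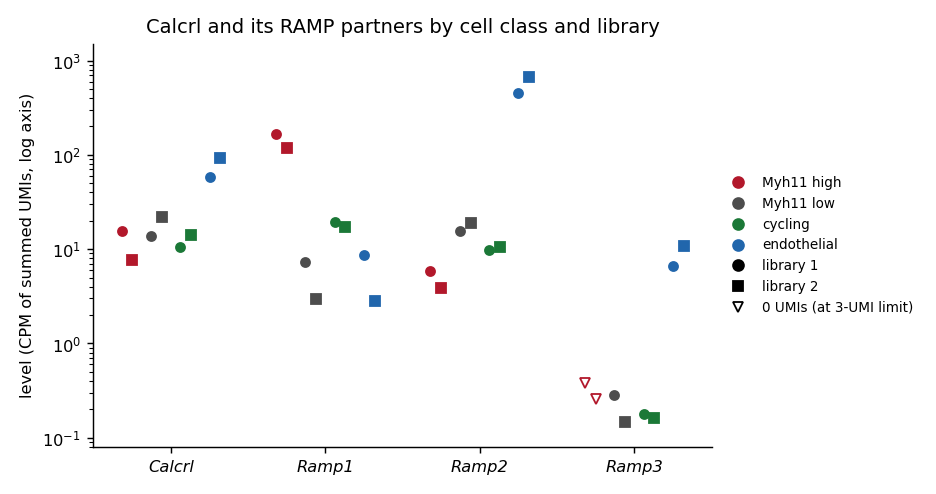
Level of *Calcrl* and of the 3 genes that encode its RAMP partners in CPM of summed UMIs (log axis), by cell class (colour) and library (shape); open triangles mark 0 UMIs. *Ramp1* is highest in Myh11-high cells and *Ramp2* and *Ramp3* in ECs (458 and 665 CPM of *Ramp2*).

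*Ptger4* was low in smooth muscle and higher in ECs. It was at 1.02 and 0.942 CPM in Myh11-high cells, 1.75 and 1.76 CPM in Myh11-low cells and 2.08 and 1.37 CPM in cycling cells. The Myh11-high cells were lowest in both libraries, but the log2 fold change against Myh11-low cells of -0.76 ± 0.38 (SE) did not pass (edgeR adjusted p = 0.354). The ECs had 13.2 and 20.6 CPM from 26 and 36 UMIs, in 19.6% (95% exact binomial interval 12.4% to 28.6%) and 20.6% (14.2% to 28.2%) of the cells. The log2 fold change against the smooth muscle classes was 3.35 ± 0.27 (SE; edgeR adjusted p = 0.000337). Exons of *Ptger4* (GRCm38 chr15:5206661-5244187, minus strand) overlap *Ttc33* and Gm15937 on the opposite strand.

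The members were also followed over finer steps of *Myh11* in cells that were neither cycling nor endothelial. From 0 over 0 to 100, 100 to 300 and 300 to 1000 up to at least 1000 CPM of *Myh11*, *Ramp1* was at 6.02, 17.7, 50.4, 168 and 372 CPM in replicate 1 and at 2.50, 10.5, 38.5, 111 and 251 CPM in replicate 2. It was higher at each step in both libraries. *Avpr1a* was at 25.6 CPM in the lowest and 6.15 CPM in the highest bin of replicate 1, and at 13.7 and 2.38 CPM in replicate 2, and *Ednra* at 4.26 and 0.769 CPM and at 6.77 and 1.19 CPM. Neither was lower at each step in both libraries. *Ednra* was highest in the middle bin of replicate 1 at 7.29 CPM, and *Avpr1a* was highest in the second bin of both libraries at 27.3 and 14.2 CPM. *Calcrl* differed between the libraries, with 13.9 and 13.1 CPM at the ends in replicate 1 and 22.4 and 3.56 CPM in replicate 2. The highest bin held 62 and 107 cells.

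**Figure D4:**
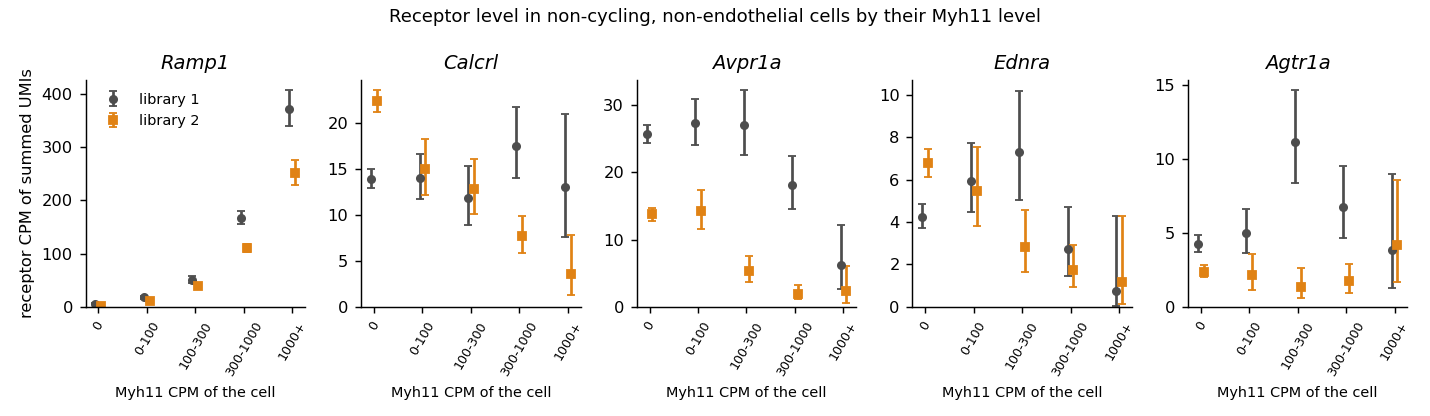
Receptor level in CPM of summed UMIs against the *Myh11* level of the cell in 5 bins, for cells that were neither cycling nor endothelial; colours and shapes are the libraries and bars are exact 95% Poisson intervals, which cover counting error only. *Ramp1* is higher in each bin than in the one before, from 6.02 to 372 CPM in replicate 1 and from 2.50 to 251 CPM in replicate 2.

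Counted over the 9 genes, cells without any member were fewest among the Myh11-high cells and ECs. No member was found in 14.7% and 25.6% of Myh11-high cells, 42.8% and 51.8% of Myh11-low cells, 37.5% and 50.8% of cycling cells and 25.5% and 21.3% of ECs. At least 2 members were found in 39.6% and 15.0% of Myh11-high cells, 18.9% and 10.9% of Myh11-low cells and 41.2% and 39.7% of ECs. A member without a UMI in a cell may still be expressed there, and these shares do not tell a missed transcript from an absent one. *Ramp1* alone had a UMI in 63.6% and 66.6% of Myh11-high cells, against 8.44% and 3.32% of Myh11-low cells. The 9 genes summed to 215 and 133 CPM in Myh11-high cells, of which *Ramp1* was 168 and 118 CPM. In Myh11-low cells they summed to 58.9 and 51.3 CPM, of which *Ramp1* was 7.29 and 2.98 CPM. The other genes together were not higher in the Myh11-high cells. The part of depth in these shares was not tested.

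The genes most like each member in level over the 10 sums of UMIs (the 4 classes and the cells with 2 to 4 *Myh11* UMIs, in 2 libraries) were found by Pearson's r of log2(CPM + 1) among 8012 genes (8013 for *Ednra*, *Agtr1a* and *Ptger4*). These sums share libraries and classes, so the values are descriptions. For *Ramp1* they were *Actg2* (r = 0.981), which encodes smooth muscle γ-actin, *Tns1* (0.976) and *Actn4* (0.971), and r with *Myh11* was 0.923. The genes most like *Ednrb* were *Sox17* (0.999), *Car8* (0.998) and *Sox18* (0.998). *Sox17* and *Sox18* encode transcription factors of endothelium. For *Ptger4* they were *Hmox2* (0.993), *Clec14a* (0.989) and *Itgb4* (0.989), and for *Calcrl* *Stx3* (0.983), *Zfp68* (0.973) and *Ablim1* (0.972). With the gate gene *Cdh5* r was 0.998 for *Ednrb*, 0.981 for *Ptger4* and 0.938 for *Calcrl*. A high r with *Ednrb* was therefore not particular to the *Sox* genes. *Ednra* was closest to *Lix1l* (0.967), *Gas6* (0.965) and *Tmem35a* (0.963), *Avpr1a* to *Fscn1* (0.984), *Adam23* (0.983) and *Pafah1b3* (0.983), and *Agtr1a* to *Tsc22d3* (0.916), *Gnb4* (0.886) and *Smim13* (0.865).

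Of 53 other receptors for vasoactive ligands, 6 had no UMI in any cell of either library (*Adra1a*, *Avpr1b*, *Avpr2*, *Ptgdr*, *Hrh2* and *Uts2r*, named after their values were seen), 13 had 1 to 10 and 28 had over 100. In 26 of the 53 the level was under 1 CPM in every smooth muscle sum. The 3 with the highest mean level were *F2r*, the thrombin receptor (108 and 75.9 CPM in Myh11-high and 92.6 and 85.5 CPM in Myh11-low cells), *S1pr1*, a sphingosine-1-phosphate receptor (251 and 307 CPM in ECs), and *Lpar1*, a lysophosphatidic acid receptor (68.6 and 70.5 CPM in Myh11-low cells).

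Of these receptors 32 were tested, and 2 were higher in Myh11-high than in Myh11-low cells and none lower. The median log2 fold change was -0.13 (0.01 with the 2 receptors that had a side at 0 set at their bound) against -0.03 over all genes tested. *P2rx1*, the ATP-gated channel of smooth muscle, was at 14.7 and 6.17 CPM against 0.0334 and 0.0739 CPM (log2 fold change 7.56 ± 0.62, SE; edgeR adjusted p = 0.00577). *P2ry2*, a nucleotide receptor, was at 6.23 and 5.14 CPM against 2.30 and 2.13 CPM (log2 fold change 1.44 ± 0.26, SE; edgeR adjusted p = 0.0388). With the library as a block 5 were higher and 9 lower. In cycling cells 1 was higher, again *P2rx1*, and the median was -0.19 against -0.04 over all genes. In the ECs 5 were higher (*S1pr1*, *Chrm3*, *Aplnr*, *Ackr3* and *P2ry2*) and 4 lower (*F2r*, *S1pr2*, *Adora2b* and *Oxtr*), all named after their values were seen, and the median was -1.26 (-0.76 with 3 receptors at their bound) against -0.08. The block gave 6 higher and 9 lower. *Aplnr* rests on 3 and 1 UMIs in the ECs.

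The ligands and the enzymes that make or degrade them had 16 of 26 genes tested. Between Myh11-high and Myh11-low cells 2 were higher and none lower, and the median was -0.54. Both make prostanoids: *Ptgis*, prostacyclin synthase, was at 413 and 450 CPM against 153 and 172 CPM (edgeR adjusted p = 0.0117), and *Ptgs2*, cyclooxygenase-2, at 116 and 85.4 CPM against 53.5 and 55.5 CPM (edgeR adjusted p = 0.0433). With the library as a block 2 were higher and 5 lower. No gene of the list passed in edgeR in cycling cells (median -0.34; 1 higher and 2 lower with the block). In the ECs 3 were higher (*Edn1*, *Ece1* and *Ace*) and 2 lower (*Ece2* and *Adm*), and the median was -0.53 (-0.42 with 1 gene at its bound; 3 higher and 3 lower with the block). *Edn1*, which encodes endothelin-1, was at 726 and 543 CPM in ECs, where *Ednrb* was also highest, against 28.7 and 106 CPM in Myh11-low cells. Among the ECs its CPM was lower in those rich in *Ednrb*, at 554 and 261 CPM against 676 and 806 CPM in those without an *Ednrb* UMI. The share of these cells with an *Edn1* UMI had opposite orders in the libraries, at 91.3% and 56.4% against 78.8% and 74.6%. *Ptges3*, a prostaglandin E synthase and co-chaperone, was among the 3 highest of the list, at 150 and 177 CPM in Myh11-high and 162 and 188 CPM in Myh11-low cells. *Adm*, which encodes adrenomedullin, was at 47.9 and 51.4 CPM in ECs against 159 and 221 CPM in Myh11-low cells.

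Receptor partners other than *Ramp1* had 11 genes tested, of which *Ramp2* was lower in Myh11-high cells and none was higher (median -0.56, or -0.46 with *Ramp3* at its bound). With the library as a block 1 was higher and 2 were lower. None passed in edgeR in cycling cells (median -0.16; 2 higher and 2 lower with the block), and 4 were higher in ECs (*Ramp2*, *Ramp3*, *Arrb1* and *Grk2*; median 0.14). After *Ramp2* the highest were *Grk2*, a receptor kinase, at 27.4 and 28.3 CPM in Myh11-high and 21.1 and 20.5 CPM in Myh11-low cells, and *Agtrap*, which binds the AT1 receptor, at 26.1 and 20.8 against 34.0 and 38.9 CPM. Of the Gq and calcium genes downstream of the constrictor receptors 22 of 24 were tested, and 2 were higher in Myh11-high cells and none lower (median 0.08; 6 higher and 1 lower with the block). *Ppp1r14a*, which encodes the myosin phosphatase inhibitor CPI-17, was at 157 and 207 CPM against 14.7 and 10.8 CPM (log2 fold change 3.91 ± 0.41, SE; edgeR adjusted p = 0.00895).

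All 21 Gs and cAMP genes were tested. The highest were *Gnas*, which encodes the Gs α subunit, at 1445 and 1346 CPM in Myh11-high and 1542 and 1520 CPM in Myh11-low cells, *Gnai2* (796 and 788 against 764 and 688 CPM) and *Prkar1a* (275 and 242 against 317 and 309 CPM). Between Myh11-high and Myh11-low cells 3 were higher and none lower (median -0.05; 5 higher and 1 lower with the block). The adenylyl cyclase *Adcy5* was at 30.0 and 48.0 CPM against 5.55 and 3.55 CPM (3.18 ± 0.50 on the log2 scale, SE; edgeR adjusted p = 0.0269). *Gnai1*, an inhibitory G protein subunit, was at 51.2 and 59.7 CPM against 20.1 and 19.5 CPM (1.57 ± 0.19, SE; edgeR adjusted p = 0.0134). *Prkar2a*, a regulatory subunit of protein kinase A, was at 93.0 and 83.1 CPM against 58.8 and 52.4 CPM (0.74 ± 0.13, SE; edgeR adjusted p = 0.0388), and it was the 1 gene of this list that was higher in cycling cells (0.66 ± 0.13, SE; edgeR adjusted p = 0.0381; median of the list -0.01; 2 higher and 2 lower with the block). None of the Gq and calcium genes passed there (median 0.04; 2 higher and 1 lower with the block). In the ECs 6 Gq and calcium genes were higher and 4 lower (median -0.18; 6 higher and 8 lower with the block). Of the Gs and cAMP genes 3 were higher and 6 lower there (median -0.48, or -0.36 with 2 genes at their bound; 3 higher and 7 lower with the block). Among the 3 was *Adcy4*, an adenylyl cyclase named after its value was seen, at 62.7 and 86.2 CPM in ECs against 1.65 and 2.97 CPM in Myh11-low cells.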

How the data were processed

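The authors deposited unfiltered UMI counts per gene and barcode of 2 10x Genomics 3′ v3 libraries, without normalization. The submitters' processing notes name Cell Ranger 3.0.2 and genome build mm10, and the header of the second matrix names 3.1.0. How antisense reads and reads of near-identical genes were counted is not given in the sources used here. Genes were matched by symbol, and coordinates are those of GENCODE M21 on GRCm38.

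Barcodes were filtered and classed by the thresholds given in the text, ECs first and then cycling cells. Doublets were kept and no caller was run. UMIs were summed per class and library. The sums were fitted together with edgeR 4.0.16 (filterByExpr, TMM, quasi-likelihood test, Benjamini-Hochberg threshold 0.05) under R 4.3.3, without a block; SE is the log2 fold change divided by the square root of F. The test was checked on simulated counts, drawn independently for each sum. They held no library effect, so the check does not cover the pairing of classes by library. With 2 libraries, p-values rest on the spread between these cultures. The classes of a library come from 1 culture, and deviations from the class means correlated between classes at 0.514 to 0.912, so the library numbers pair the sums. The libraries differed beyond sampling noise (median chi-square per gene 17.3).

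Free RNA was estimated from barcodes with at most 100 UMIs. The gene set planned for the smooth muscle classes held *Ptprb* and *Kdr*, which smooth muscle also had at or near ambient levels, and gave 11.4% to 56.3%; the set of 3 genes was added after the data were seen. Exact binomial intervals, Poisson intervals and the limit of 3 UMIs cover counting error only. Members and lists were chosen with earlier results of these data known. Named from each list were up to 3 genes per direction with the largest change among those past the threshold between Myh11-high and Myh11-low cells, and the 3 with the highest mean level; other names were chosen after their values were seen. The 3 Gq and calcium genes with the highest mean level, 1 of which passed, are not reported here, and genes that passed only in ECs are given mostly by name or count. Alternatives were the block, DESeq2 1.42.0, other size factors, no low-count filter, other class and cell limits, subtraction of free RNA, thinning to 3000 UMIs per cell and each library alone.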

Additional observations from a re-analysis of the deposited data

Results flagged for a closer look

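The barcodes left out for 20% or more mitochondrial UMIs are data outside the comparisons. In replicate 2 there were 59 such barcodes with at least 3000 UMIs. They held 4 UMIs of *Ramp1* and 5 UMIs of *Calcrl*, above the limit of 3 UMIs used for the flag. As levels these were 12.5 and 15.6 CPM, below the 19.6 and 18.8 CPM over all cells of replicate 2. The 87 such barcodes of replicate 1 held 3 UMIs of each.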

How the results depend on the processing

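With the library as a replicate block, 3209 genes passed between Myh11-high and Myh11-low cells, 3083 between cycling and Myh11-low cells and 5167 between ECs and the smooth muscle classes, against 466, 721 and 3324 without it. The pairing by library changed no other call of a member than those given for *Ednra* and *Ramp1*. DESeq2 called 1316 and 1261 genes in the first and second contrasts, no low-count filter gave 789 in the first, *Myh11* classes by CPM 700 and subtraction of free RNA (3 genes) 274. The pairs of member and class under 1 CPM were 9, but 16 and 15 after subtraction of free RNA by the planned and the added estimate, and 10 to 13 in single libraries. In the ECs *Ednra* did not pass in DESeq2 (-2.19, adjusted p = 0.0513), nor did *Ramp1* with the planned free RNA estimate (-3.22, adjusted p = 0.992). *Agtr1b* between Myh11-high and Myh11-low cells turned to -0.22 with that estimate. The cause was not tested. Each library alone leaves no replicates and so no count of calls. It gave *Ramp1* log2 fold changes of 4.52 to 5.30 between Myh11-high and Myh11-low cells. In the ECs the ranges were -2.54 to -1.69 for *Ramp1*, -1.96 to -1.39 for *Ednra*, 10.31 to 10.36 for *Ednrb*, 2.16 to 2.79 for *Calcrl* and 3.09 to 3.96 for *Ptger4*. Directions differed between the libraries for *Agtr1a* (-0.37 to 1.03), *Agtr1b* (-0.14 to 0.30) and *Calcrl* (-1.50 to 0.18) between Myh11-high and Myh11-low cells, for *Ptger4* in cycling cells (-0.35 to 0.25), and for *Agtr1a* (-2.64 to 1.08) and *Agtr1b* (-1.03 to 0.73) in ECs. The ECs, with 243 cells in all, set the depth limit for *Adra1d*, *Agtr1a*, *Agtr1b* and *Ednra*.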
